A study of Homo sapiens with 9 samples.

Results

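Long intergenic noncoding RNAs (symbols LINC and a number) and antisense RNAs (a gene's symbol followed by -AS) were followed through differentiation and SPINK7 silencing of EPC2 cells, a human line from the esophageal epithelium that was made immortal with telomerase reverse transcriptase. Members were rows with a noncoding RefSeq accession and such a symbol on the primary chromosomes, with counts summed per symbol and chromosome and a minimum of 50 counts over 9 libraries. Of 24672 genes in the deposited tables, 553 fitted the symbol and accession pattern, and 105 of these reached the minimum: 24 LINC and 81 antisense genes. Another 214 had 0 counts and 234 had 1 to 49. Just inside the minimum were ATP6V0E2-AS1 with 50 counts and BRE-AS1 with 51, and just outside were SLC7A11-AS1 with 49 and LINC00482 with 48.

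The libraries were polyA-selected RNA from 3 groups of 3. The silenced cells carried SPINK7 gene silencing and had been differentiated at an interface of air and medium (ALI). The ALI control cells carried a non-silencing control (NSC) and were treated alike, and the monolayer cells carried NSC and stayed undifferentiated. The medium of all groups contained 50 ug/mL bovine pituitary extract and epidermal growth factor at 1 ng/mL. ALI cells left 0.09 mM for 1.8 mM calcium on day 2, met air on day 7 and were collected on day 14, per the labels, although their file names speak of day 7 without saying from when it counts. SPINK7 encodes a Kazal-type protease inhibitor of the esophageal epithelium. It was at 20.9, 38.6 and 32.7 CPM (read counts scaled to library size) in the silenced libraries, against 229, 261 and 225 CPM in the ALI control libraries, with 0.212, 0.506 and 0.745 CPM in the monolayer libraries. The labels name 1 silenced population, so loss of SPINK7 and any other effect of its silencing construct cannot be told apart. Nothing says that libraries of a group are from separate cultures, and the p-values thus reflect only the scatter among these libraries, which may be technical. RNA per cell and the number of cells of a kind cannot be told apart in such bulk samples.

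Long noncoding RNAs are transcribed by RNA polymerase II and are often spliced and polyadenylated, but they are not known to be translated into long proteins. Some act on the gene beside them, others in the cytoplasm on other RNAs or proteins, and for many no role is known. An antisense RNA is read from the strand opposite its namesake. It may start beside the namesake's start and run the other way (head-to-head), so that both can share a promoter, or it may lie across the namesake's body (overlapping). Some RNAs first filed as noncoding were later found to encode small proteins, and several host small nucleolar RNAs (snoRNAs) in their introns.

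Library totals ran between 7641960 and 14009746 counts. The 105 members took 0.0790, 0.141 and 0.0927% of counts in the silenced libraries, 0.0867, 0.201 and 0.0841% in the ALI control libraries and 0.176, 0.120 and 0.120% in the monolayer libraries. C17orf76-AS1, ZNFX1-AS1 and FGD5-AS1 held 49.5 to 69.2% of the member counts of a library. Without them the shares lay between 0.0377 and 0.0617%. The median member had 199 counts over all 9 libraries. Both ALI libraries numbered 2 stood apart: MKI67, a proliferation gene, was at 0.893 CPM in silenced library 2 and 0.757 CPM in ALI control library 2, against 39.6 to 106 CPM in the other ALI libraries. Silenced library 2 was the highest of its group for 51 members, and ALI control library 2 for 45, over 2-fold above both others for 13 and over 2-fold below both for 16. Monolayer library 1 was the highest of its group for 68 members. Of the markers of squamous basal cells, all 6 were detected, with a summed level of 23282 to 48411 CPM in silenced, 15354 to 40710 CPM in ALI control and 21670 to 22694 CPM in monolayer libraries. The suprabasal lists differed most between groups: epidermal suprabasal markers (KRT1, KRT10, FLG and LOR) summed to 147 to 365 CPM in silenced, 2212 to 9187 CPM in ALI control and 14.4 to 23.2 CPM in monolayer libraries, and esophageal suprabasal markers to 1939 to 3820 CPM in silenced, 3356 to 4353 CPM in ALI control and 10.8 to 15.4 CPM in monolayer libraries. Fibroblast markers (7 listed, with LUM at 0) summed to 20.7 to 45.6 CPM in silenced, 12.2 to 49.2 CPM in ALI control and 50.1 to 186 CPM in monolayer libraries. Most of this sum was COL1A1, at 184, 51.3 and 48.2 CPM in monolayer libraries. COL1A1 was at 45.1, 20.3 and 28.2 CPM in silenced and 38.8, 11.6 and 48.3 CPM in ALI control libraries. COL1A2, COL3A1 and DCN reached at most 1.27, 0.405 and 0.234 CPM in any library. The leukocyte list (PTPRC at 0) summed to 0.374 to 8.24 CPM in silenced, 1.47 to 11.1 CPM in ALI control and 0.202 to 0.921 CPM in monolayer libraries, and the endothelial list (3 listed) to 1.40 to 2.34 CPM in silenced, 2.77 to 9.41 CPM in ALI control and 0.106 to 0.425 CPM in monolayer libraries. The melanocyte list (4 listed, TYR and DCT at 0) summed to 0.934 to 1.99 CPM in silenced, 1.64 to 3.28 CPM in ALI control and 0.745 to 1.98 CPM in monolayer libraries. The part of any of these in the results was not tested.

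The abundance of the members was carried by a few RNAs. By the authors' RPKM (reads scaled to transcript length and library size), which allows levels to be compared between genes, the highest over the ALI libraries were C17orf76-AS1, ZNFX1-AS1, LINC00493, FGD5-AS1, THAP9-AS1 and OIP5-AS1. C17orf76-AS1 averaged 299 RPKM in silenced, 349 RPKM in ALI control and 589 RPKM in monolayer libraries, while the median member was at 0.754, 0.750 and 0.888 RPKM in silenced, ALI control and monolayer libraries. C17orf76-AS1 is now named SNHG29 and ZNFX1-AS1 is now ZFAS1. Both host snoRNAs. C17orf76-AS1 was measured at 245, 517 and 286 CPM in silenced, 259, 889 and 234 CPM in ALI control and 828, 531 and 555 CPM in monolayer libraries. ZNFX1-AS1 was at 83.0, 186 and 109 CPM in silenced, 111, 516 and 111 CPM in ALI control and 145, 83.2 and 81.6 CPM in monolayer libraries. In both, library 2 was the highest of each ALI group, and the ranges of ALI control and monolayer libraries overlapped. C17orf76-AS1 did not pass the test between ALI control and monolayer (log2 fold change -0.47, SE 0.51, edgeR adjusted p = 0.48), but without ALI control library 2 the change was -1.37 with an adjusted p of 0.0101. ZNFX1-AS1 changed by 1.25 (adjusted p = 0.114), and by 0.11 without that library.

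FGD5-AS1, named after the endothelial gene FGD5, varied least of these: 96.0, 139 and 118 CPM in silenced, 106, 127 and 89.4 CPM in ALI control and 133, 131 and 121 CPM in monolayer libraries. The ranges of silenced and ALI control libraries overlapped, as did those of ALI control and monolayer libraries. FGD5 itself had 0 CPM in every group. The span of FGD5-AS1 overlaps that of another coding gene, NR2C2, and whether reads of NR2C2 were counted for FGD5-AS1 was not tested. OIP5-AS1, known in other cells to bind the RNA-stabilising protein HuR, was at 29.1, 55.2 and 30.4 CPM in silenced, 31.2, 66.1 and 26.3 CPM in ALI control and 35.0, 37.9 and 34.6 CPM in monolayer libraries, with ALI library 2 of each kind above all monolayer libraries.

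**Figure D1:**
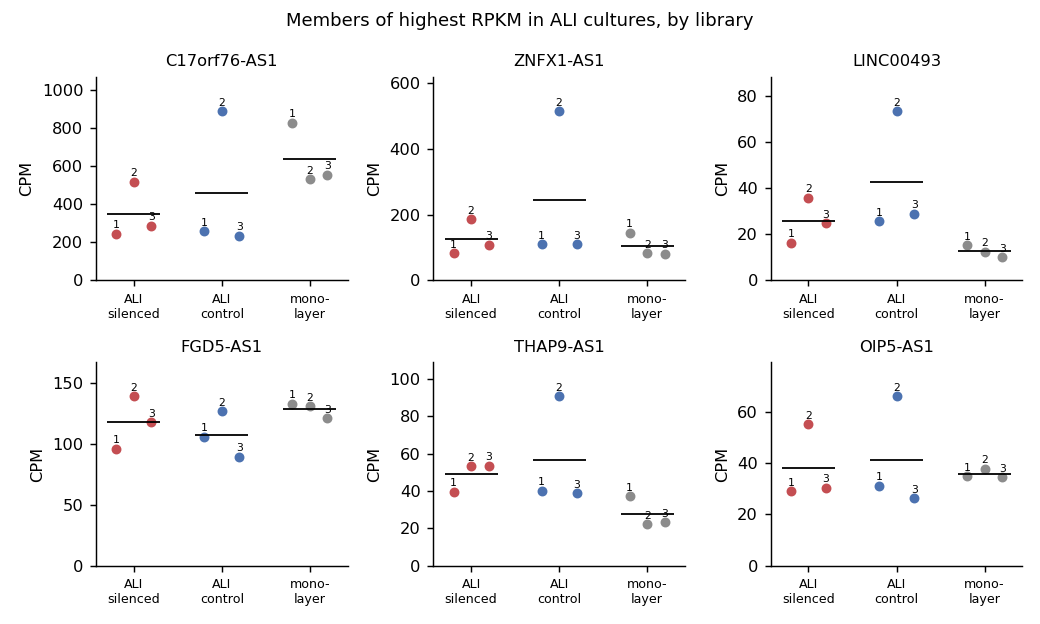
CPM (y axis, starting at 0) of the 6 members of highest RPKM over the ALI cultures, with 1 point per library numbered 1 to 3 and a line at the group mean; groups run silenced, ALI control, monolayer. ALI control library 2 is the highest of its group in all 6 panels, with 889 CPM for C17orf76-AS1 against 259 and 234 CPM in the others of that group.

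The first comparison, ALI control against monolayer, asks which of these RNAs differ between stratified and undifferentiated control cells. LINC00520 and LINC00592 were near absent from the monolayer and present in every ALI library, while MFI2-AS1, MAGI2-AS3 and a pair of LINC genes beside SIK1 were lower in ALI control cells. Of the 105 members, 82 passed the low-count filter and were tested. Among these, 16 were higher (19.5%) and 18 lower (22.0%) in ALI control cells at an adjusted p under 0.05, where 20.3% of all 12806 tested genes were higher and 20.2% lower. In either direction these were 34 members (41.5%) and 40.5% of all tested genes. The members' shares were near the background in both directions. The members' log2 fold changes ranged from -3.39 to 8.30, with a median of 0.08 beside 0.03 over all tested genes, and their median size without sign was 0.88 beside 0.69. Of 19 LINC genes tested, 6 were higher and 8 lower (median -0.50), and of 63 antisense genes tested, 10 were higher and 10 lower (median 0.12). The CPM of ALI control and monolayer libraries did not overlap for 44 of the 82 (53.7%), where 57.3% of all tested genes did not overlap. The counts rest on few libraries: without 1 monolayer library at a time they were 13, 7 and 7 higher and 11 lower each time (libraries 1, 2 and 3 left out), and without ALI control library 2 they were 10 higher and 14 lower. The share of all tested genes called in these runs is not given here, so the drop is not read as particular to the members.

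**Figure D2:**
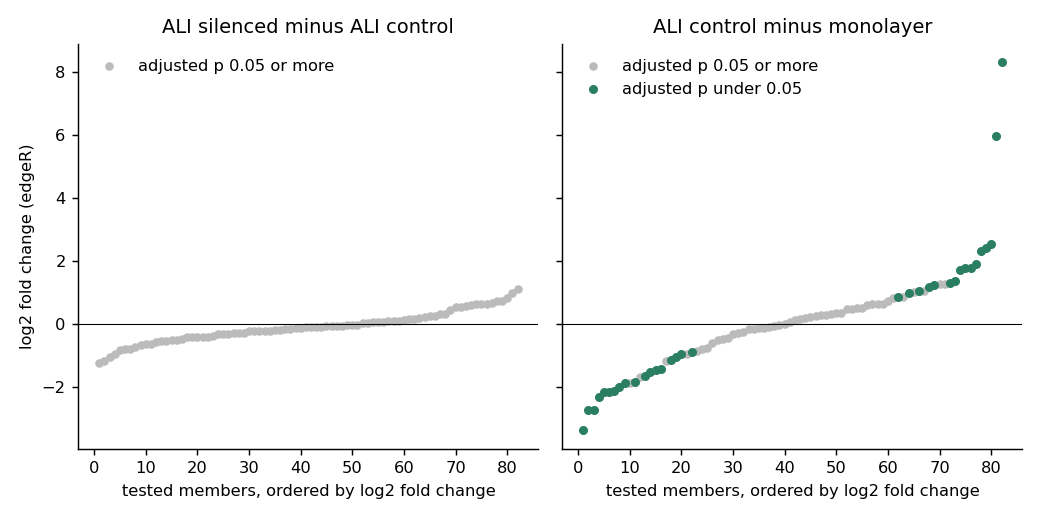
Log2 fold change (y axis, edgeR) of the 82 tested members in order of size, for ALI silenced minus ALI control (left) and ALI control minus monolayer (right); green points have an adjusted p under 0.05. The right panel reaches from -3.39 to 8.30 with 34 green points, and the left panel from -1.26 to 1.11 with none.

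LINC00520, a long intergenic RNA on chromosome 14 (56247853 to 56263392, minus strand, hg19), had the largest rise. It was at 14.3, 30.9 and 24.0 CPM in silenced, 20.1, 74.3 and 27.4 CPM in ALI control and 0.283, 0 and 0 CPM in monolayer libraries. Every ALI library lay far above every monolayer library, which held 4 counts among them, and the silenced and ALI control ranges overlapped. ALI control minus monolayer was 8.30 on the log2 scale (SE 0.87, 95% interval 6.17 to 10.42, adjusted p = 6.94e-05). It was 7.53 without ALI control library 2 and 11.62 without monolayer library 1, the only monolayer library with reads. Its nearest coding gene, KTN1, which encodes the motor receptor kinectin, starts 216467 bases away and changed by 0.69 (adjusted p = 0.0741).

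LINC00592 on chromosome 12 (52604714 to 52617597, plus strand, hg19) followed the same pattern at a lower level. It was at 1.40, 5.22 and 3.16 CPM in silenced, 1.61, 9.08 and 2.43 CPM in ALI control and 0.142, 0 and 0 CPM in monolayer libraries. On 107 counts in ALI control against 2 counts in monolayer libraries, the ratio of pooled counts, each over its pooled library size, was 71.9, with a counting interval (95%) of 19.4 to 601 that covers counting error only. The fitted change was 5.96 (SE 1.09, adjusted p = 0.00206), 4.87 without ALI control library 2 and 8.41 without monolayer library 1. Silenced and ALI control ranges overlapped. The promoter of LINC00592, from RefSeq (GRCh38.p14, chr12:52210680-52210979, plus strand, 250 bases before to 50 after the start), is shown because this RNA was read almost only in ALI libraries. Capitals mark matches, on either strand, to AP-1 TGANTCA, SP/KLF GGGCGG, TEAD GGAATG or an interferon element; no matches overlap in the windows shown.
LINC00592: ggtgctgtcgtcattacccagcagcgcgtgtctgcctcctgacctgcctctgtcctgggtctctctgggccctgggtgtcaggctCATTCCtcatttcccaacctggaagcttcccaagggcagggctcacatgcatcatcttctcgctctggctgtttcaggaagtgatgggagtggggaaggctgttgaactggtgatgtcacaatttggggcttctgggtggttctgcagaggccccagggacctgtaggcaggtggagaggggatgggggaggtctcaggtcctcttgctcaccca
The window held 1 TEAD match and none of the other motifs; 14% of 35116 RefSeq promoters of that length hold the TEAD letters, and a match in letters is not a bound site.

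Apart from LINC00493, described below, the other large rises were of RNAs at a few CPM. PXN-AS1 lies across PXN, which encodes the focal adhesion protein paxillin, and CBR3-AS1 lies across CBR3, a carbonyl reductase. PXN-AS1 was at 1.03, 0.756 and 1.05 CPM in silenced, 1.47, 2.65 and 2.64 CPM in ALI control and 0.850, 0 and 0.319 CPM in monolayer libraries. CBR3-AS1 was at 1.78, 4.05 and 1.40 CPM in silenced, 3.88, 3.03 and 2.22 CPM in ALI control and 1.49, 0.506 and 0.319 CPM in monolayer libraries. Both had ALI control libraries above all monolayer libraries, and both namesakes moved the other way. PXN-AS1 rose by 2.4 (SE 0.72, adjusted p = 0.0235) while PXN changed by -2.08 (adjusted p = 0.00239); CBR3-AS1 rose by 1.89 (SE 0.61, adjusted p = 0.0317) while CBR3 changed by -2.36 (adjusted p = 0.0166). Leaving out ALI control library 3 or monolayer library 3 ended the call for PXN-AS1 (adjusted p 0.0585 and 0.0809), and leaving out ALI control library 1 or monolayer library 2 or 3 ended it for CBR3-AS1 (0.0890, 0.107 and 0.101); without monolayer library 1 the changes were 3.75 and 2.83. CBR3 was itself at 1.42 CPM in silenced, 0.237 CPM in ALI control and 1.27 CPM in monolayer libraries on average. The promoter of CBR3-AS1 (RefSeq, GRCh38.p14, chr21:36156259-36156558, minus strand), shown since it was 1 of 5 members of 82 matched whose promoter holds the AP-1 letters, had 2 AP-1 and 5 SP/KLF matches, in capitals.
CBR3-AS1: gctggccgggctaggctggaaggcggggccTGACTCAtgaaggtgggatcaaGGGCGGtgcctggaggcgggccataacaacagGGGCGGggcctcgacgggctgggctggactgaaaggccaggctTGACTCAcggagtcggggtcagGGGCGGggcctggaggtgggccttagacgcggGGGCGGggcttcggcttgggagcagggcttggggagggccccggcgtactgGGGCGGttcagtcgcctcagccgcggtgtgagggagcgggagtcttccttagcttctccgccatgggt
AP-1 letters stand in 6.10% of the 82 members' promoters and in 7.71% of all, SP/KLF letters in 54.9% and in 45%, TEAD letters in 8.54% and in 14%, and the interferon element in 3.66% and in 3.57%.

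KDM5B-AS1, now named PCAT6, starts 2525 bases from KDM5B, which encodes a histone H3 lysine 4 demethylase. It was at 2.90, 4.26 and 2.81 CPM in silenced, 4.42, 3.53 and 4.76 CPM in ALI control and 1.49, 0.304 and 0.639 CPM in monolayer libraries. All ALI libraries lay above all monolayer libraries, and it rose by 2.31 (SE 0.50, adjusted p = 0.00481; 3.15 without monolayer library 1), while KDM5B changed by -0.11 (adjusted p = 0.667). HOXC-AS5, now HOXC13-AS, lies in the HOXC cluster of homeobox genes. It was at 0.374, 1.17 and 0.585 CPM in silenced, 1.34, 1.77 and 1.48 CPM in ALI control and 0.567, 0 and 0.106 CPM in monolayer libraries, with ALI control libraries above all others. It rose by 2.54 (SE 0.79, adjusted p = 0.0273), and leaving out ALI control library 1 or 3 or monolayer library 2 or 3 ended the call (adjusted p 0.0522, 0.0526, 0.0703 and 0.0938), while without monolayer library 1 the change was 4.57. HOXC-AS5 reached the minimum only through ALI control (38 of 73 counts), so its rise is a description only.

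A pair of the members that rose are now annotated as coding for small mitochondrial proteins. LINC00493, now SMIM26, was at 16.4, 35.9 and 24.7 CPM in silenced, 25.7, 73.5 and 29.0 CPM in ALI control and 15.2, 12.4 and 10.1 CPM in monolayer libraries. LINC00116, now MTLN, which encodes mitoregulin, was at 12.4, 11.0 and 9.95 CPM in silenced, 10.4, 15.5 and 13.4 CPM in ALI control and 5.24, 5.97 and 5.53 CPM in monolayer libraries. Every ALI library exceeded every monolayer library for both. LINC00493 rose by 1.76 (SE 0.43, adjusted p = 0.00980; 1.12 without ALI control library 2) and LINC00116 rose by 1.23 (adjusted p = 0.00234). In all, 102 of the 105 members matched the current RefSeq annotation, where 6 are now coding genes and 2 are transcribed pseudogenes. The remaining rises were of KTN1-AS1 (described with silencing), LINC00518 (1.72), SLC2A1-AS1 (1.35), PITPNA-AS1 (1.29), LINC00476 (1.18), THAP9-AS1 (1.03), MAPKAPK5-AS1 (0.97) and ARHGAP5-AS1 (0.84), with adjusted p between 0.0126 and 0.0487. THAP9, which encodes a transposase-derived protein, rose by 1.31 (adjusted p = 0.0263). The THAP9-AS1 call was lost in 10 of 19 alternatives: without ALI control library 2 THAP9-AS1 changed by 0.52 with an adjusted p of 0.126, and the call was also lost without silenced library 3 (0.0571), without monolayer library 2 or 3 (0.133 and 0.126), without both ALI libraries numbered 2 (0.0852), with the replicate number as a block (0.0567), with only the groups compared (0.0646), in limma-voom (0.0528) and on the RPKM scale with 0.1 or 1 added before the log2 (0.0886 and 0.0798).

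**Figure D3:**
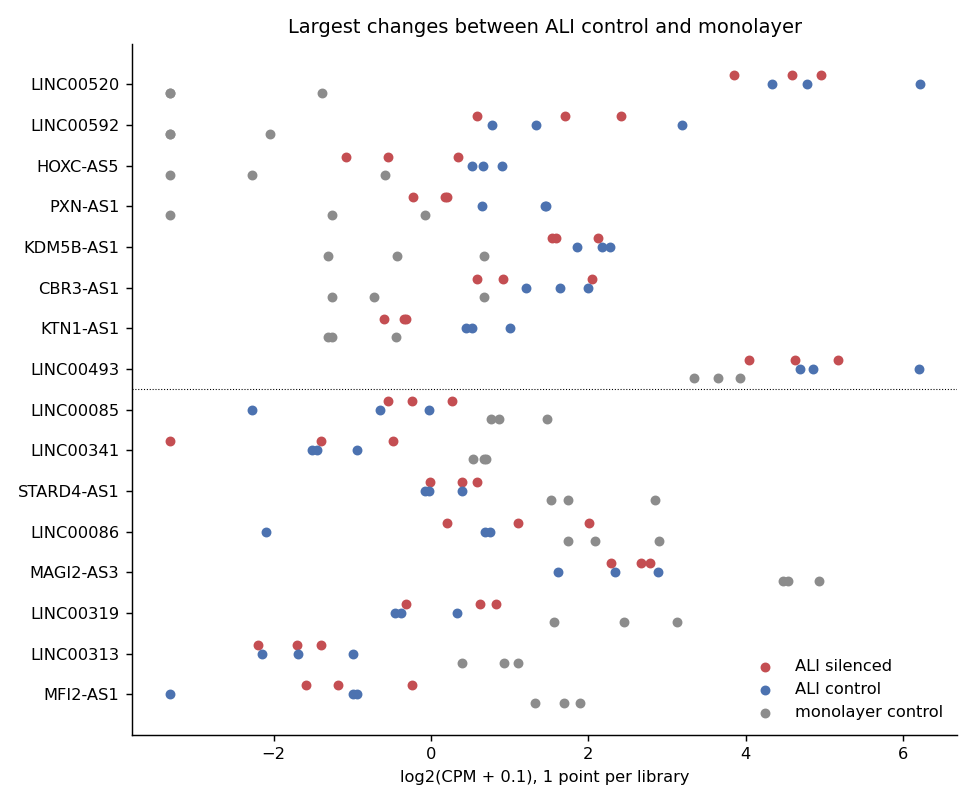
Log2(CPM + 0.1) (x axis, 1 point per library) of the 8 largest rises (above the dotted line) and 8 largest falls (below it) between ALI control and monolayer among members past the test; colours mark silenced, ALI control and monolayer libraries from top to bottom within a gene. LINC00520 holds 20.1 to 74.3 CPM in ALI control and 0 to 0.283 CPM in monolayer libraries.

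Among the falls, MFI2-AS1 (now MELTF-AS1; chromosome 3, 196729777 to 196731615, plus strand, hg19) was the largest. It was at 0.747, 0.343 and 0.234 CPM in silenced, 0.402, 0 and 0.423 CPM in ALI control and 2.41, 3.14 and 3.62 CPM in monolayer libraries. All 6 ALI libraries lay below all monolayer libraries, and the change was -3.39 (SE 0.68, adjusted p = 0.00348). Its overlapping namesake MFI2, the iron-binding melanotransferrin, averaged 46.6 CPM in silenced, 29.6 CPM in ALI control and 260 CPM in monolayer libraries, a change of -3.14 (adjusted p = 0.000538) in ALI control against monolayer.

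MAGI2-AS3 on chromosome 7 (79082273 to 79100524, plus strand, hg19) was the most deeply counted of the large falls. It was at 4.77, 6.25 and 6.79 CPM in silenced, 4.96, 7.32 and 2.96 CPM in ALI control and 30.4, 22.2 and 23.1 CPM in monolayer libraries. The groups at the ALI overlapped each other and lay below every monolayer library; the change was -2.32 (SE 0.33, 95% interval -3.12 to -1.51, adjusted p = 0.00048). MAGI2, a membrane scaffold gene whose start lies 386 bases away on the other strand, was at 0.502 CPM in silenced, 0.328 CPM in ALI control and 1.12 CPM in monolayer libraries and was not tested. The promoters of MFI2-AS1 (RefSeq, GRCh38.p14, chr3:197002656-197002955, plus strand) and MAGI2-AS3 (chr7:79452707-79453006, plus strand) are set side by side as those of the largest and the best counted fall, with the same motifs in capitals.
MFI2-AS1: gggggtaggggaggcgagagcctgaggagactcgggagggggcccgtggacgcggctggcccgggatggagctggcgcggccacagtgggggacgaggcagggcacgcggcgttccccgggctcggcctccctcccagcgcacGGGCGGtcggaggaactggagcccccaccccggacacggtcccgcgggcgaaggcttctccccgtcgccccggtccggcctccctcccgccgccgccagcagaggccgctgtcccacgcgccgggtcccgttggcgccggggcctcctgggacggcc
MAGI2-AS3: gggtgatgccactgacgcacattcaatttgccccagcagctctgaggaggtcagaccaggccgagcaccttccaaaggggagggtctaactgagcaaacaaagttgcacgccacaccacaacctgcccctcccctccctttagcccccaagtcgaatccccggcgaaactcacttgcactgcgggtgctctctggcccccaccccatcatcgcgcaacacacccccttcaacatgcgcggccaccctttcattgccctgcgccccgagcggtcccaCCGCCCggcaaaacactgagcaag
Each held 1 SP/KLF match and none of the other motifs, and the MFI2-AS1 window was 79% G and C against 62% in that of MAGI2-AS3.

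LINC00313 and LINC00319 lie near each other on chromosome 21 and share SIK1, which encodes salt-inducible kinase, as their nearest coding gene. LINC00319 was at 1.68, 1.44 and 0.702 CPM in silenced, 0.670, 0.631 and 1.16 CPM in ALI control and 8.64, 5.36 and 2.87 CPM in monolayer libraries. LINC00313 was at 0.280, 0.206 and 0.117 CPM in silenced, 0.402, 0.126 and 0.211 CPM in ALI control and 2.05, 1.21 and 1.81 CPM in monolayer libraries. LINC00313 had 7 counts in silenced, 6 in ALI control and 58 in monolayer libraries. It reached the minimum only through the monolayer, so its change is a description only. Both were lower in every ALI library than in any monolayer library. Each changed by -2.75 (LINC00319 SE 0.53, adjusted p = 0.00262; LINC00313 SE 0.55, adjusted p = 0.00319), and SIK1 changed by -2.43 (adjusted p = 5.3e-05), with 84.6 CPM in silenced, 61.2 CPM in ALI control and 329 CPM in monolayer libraries on average.

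STARD4-AS1, head-to-head with the cholesterol transfer gene STARD4, fell by 2.16 on the log2 scale (adjusted p = 0.00472), while STARD4 changed by -0.51 (adjusted p = 0.179). LINC00086 changed by -2.16 (adjusted p = 0.0311), LINC00341, now part of the nesprin-3 gene SYNE3, by -2.14 (adjusted p = 0.0338) and LINC00085, now SPACA6, by -2.01 (adjusted p = 0.0235). Their calls were not stable: LINC00086 was not called without ALI control library 1 or monolayer library 1 or 3 (adjusted p 0.0639, 0.112 and 0.0583), LINC00085 without ALI control library 1 or 3 or monolayer library 1 (0.0614, 0.0560 and 0.0798; its change was -2.69 without ALI control library 2), and LINC00341 without any 1 of the ALI control or monolayer libraries (0.0603 to 0.0963). The other falls were of TRHDE-AS1 (-1.90), AFAP1-AS1 (-1.85), MCM3AP-AS1 (-1.67), LOXL1-AS1 (-1.53), LINC00174 (-1.48), TP73-AS1 (-1.44), BOLA3-AS1 (-1.16), LINC00094 (-1.05), CTBP1-AS1 (-0.96) and LINC00294 (-0.89), with adjusted p between 0.00158 and 0.0458. LOXL1, a matrix crosslinking enzyme, changed by -3.39 (adjusted p = 5.25e-05), and AFAP1, an actin filament-binding protein, by -1.89 (adjusted p = 0.00234), each in the direction of its antisense RNA. ZEB1-AS1, head-to-head with the mesenchymal transcription factor ZEB1, did not pass the test (-0.82, adjusted p = 0.231), while ZEB1 changed by -1.90 (adjusted p = 0.0143). LINC00152, now CYTOR, changed by -0.77 (adjusted p = 0.0676), but was called without monolayer library 1 (-1.03, 0.0225) and on log2(RPKM + 0.1) and log2(RPKM + 1) (0.0429 and 0.0355). EPB41L4A-AS1 changed by 1.00 (adjusted p = 0.17), and by 0.07 without ALI control library 2.

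The deposited coordinates and strands placed a namesake or nearest coding gene beside 102 members. Of the antisense genes, 38 were head-to-head with their namesake (starts within 1000 bases on opposite strands), of which 25 also overlapped its span, 34 overlapped it with starts further apart, 6 lay apart, and 3 had no namesake row. Of these last 6, HNRNPU-AS1 stood on the same strand as HNRNPU and is now annotated as part of it. With both genes tested, the log2 fold changes of member and partner between ALI control and monolayer were related more closely head-to-head (28 pairs, Pearson r 0.70, Spearman rho 0.75) than in overlapping pairs with starts further apart (23 pairs, r 0.22, rho 0.15), and the difference between these was not tested. The head-to-head pairs gave r 0.73 where the spans overlap (19 pairs) and r 0.62 where they do not (9 pairs). LINC genes and their nearest coding genes gave r 0.69 and rho 0.77 over 15 pairs, of which LINC00313 and LINC00319 share SIK1. LINC00341 is now annotated as SYNE3, its neighbour here, and without it r was 0.68 over 14 pairs. Every point shares the same 6 libraries, and genes are not independent replicates. Where both passed the test (18 pairs), 14 moved the same way and 4 the opposite way: PXN-AS1, CBR3-AS1, LINC00476 with ERCC6L2, and LINC00518 with TFAP2A. The 14 include LINC00341 with SYNE3, without which they are 13 of 17. Of 5 head-to-head pairs with both called, 4 moved the same way (THAP9-AS1, MAPKAPK5-AS1, CTBP1-AS1 and TRHDE-AS1 with their namesakes) and 1 the opposite way (LINC00476, 359 bases from ERCC6L2). Since 68 of the 105 members overlap a coding row and the counter's use of strand is not given in the sources used here, reads of a gene and its antisense partner may not be separated. The 30 tested members that overlap no coding row had 8 higher and 9 lower calls, with a median of 0.16. Of all tested genes, 20.3% were higher and 20.2% lower. The part of read assignment in the calls was not tested.

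**Figure D4:**
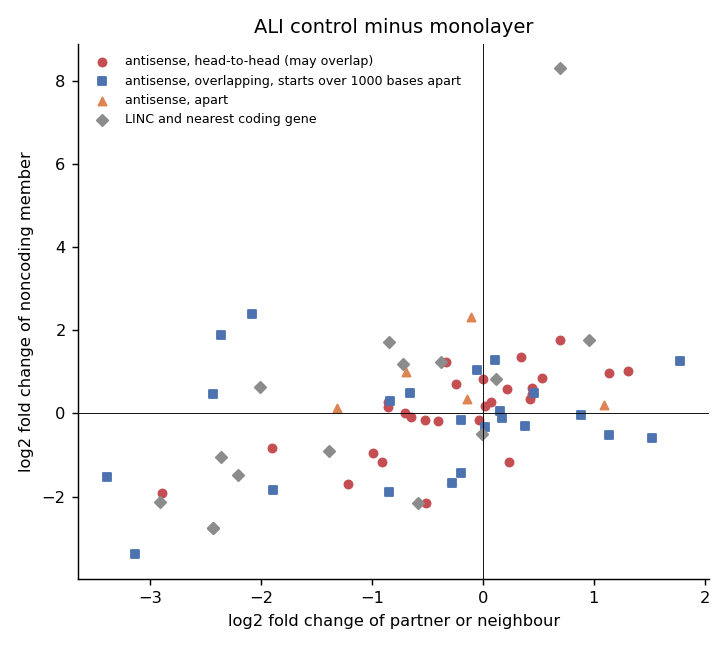
Log2 fold change between ALI control and monolayer of each tested member (y axis) against that of its namesake or, for LINC genes, its nearest coding gene (x axis), 71 pairs, with symbols for the arrangement. Antisense head-to-head pairs gave r 0.70 with some off the diagonal, such as BOLA3-AS1 (-1.16, namesake 0.23) and STARD4-AS1 (-2.16, namesake -0.51), and pairs that overlap with starts further apart include PXN-AS1 (2.4) and CBR3-AS1 (1.89), whose namesakes changed by -2.08 and -2.36.

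The second comparison, silenced against ALI control, asks which of these RNAs differ with SPINK7 silencing in differentiated cells. It shares its ALI control libraries with the first. None of the 82 tested members passed the test in either direction, where 0.226% of all tested genes were higher and 0.703% lower in silenced cells, 0.929% in all (edgeR, adjusted p under 0.05). At an unadjusted p under 0.05, 1 member was higher and 1 lower (2.44%), beside 9.16% of all tested genes. That count of 2 was 9 without silenced library 2, 5 without ALI control library 1 or monolayer library 1 or 2, 4 when the omitted one was number 3 of the silenced or monolayer group, and 3 when it was silenced library 1 or ALI control library 3. These runs tested 87 to 90 members in place of 82. Each took in LINC00340, LIMD1-AS1 or both, which the main filter left out and which are described below. The counts are thus not over the same members. The share of all tested genes at that level in these runs is not given here. DESeq2 and limma-voom also called 0. The log2 fold changes ran from -1.26 to 1.11, with a median of -0.11 beside 0.01 over all tested genes. The median standard error of a member was 0.45 on the log2 scale. LINC00520, near absent from the monolayer, changed by -0.81 between silenced and ALI control cells (95% interval -2.10 to 0.48, adjusted p = 0.696), and by -0.04 without ALI control library 2. MAGI2-AS3 changed by 0.23 (-0.57 to 1.03, adjusted p = 0.845). Silenced and ALI control libraries did not overlap for 11 of the 82 (13.4%), 5 higher and 6 lower in silenced, where 12.1% of all tested genes did not overlap.

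The pair with unadjusted p under 0.05 were LINC00294 and KTN1-AS1. LINC00294 was at 12.0, 14.3 and 12.9 CPM in silenced, 8.97, 8.95 and 7.93 CPM in ALI control and 15.6, 17.2 and 15.0 CPM in monolayer libraries. The 3 groups did not overlap, with silenced cells between ALI control and monolayer. Its change on silencing was 0.60 (SE 0.20, 95% interval 0.12 to 1.08, adjusted p = 0.266), and ALI control minus monolayer was -0.89 (SE 0.20, adjusted p = 0.0055). KTN1-AS1, head-to-head with KTN1 at 115 bases between starts, was at 0.561, 0.687 and 0.702 CPM in silenced, 1.34, 1.26 and 1.90 CPM in ALI control and 0.637, 0.304 and 0.319 CPM in monolayer libraries. Every ALI control library was above every other library. The counts were 22 in silenced, 38 in ALI control and 15 in monolayer libraries. KTN1-AS1 reached the minimum only through ALI control, where it is high, so its changes are a description only. Its change on silencing was -1.20 (SE 0.44, 95% interval -2.28 to -0.12, adjusted p = 0.361), and ALI control minus monolayer was 1.77 (SE 0.46, adjusted p = 0.0126; 0.0619 and 0.0599 without monolayer library 2 or 3). KTN1 changed by -0.47 on silencing (adjusted p = 0.672).

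TP73-AS1, now a transcribed pseudogene in RefSeq, was at 9.53, 6.46 and 6.91 CPM in silenced, 4.42, 5.68 and 5.82 CPM in ALI control and 16.5, 13.9 and 12.9 CPM in monolayer libraries. Its 3 groups did not overlap, with silenced cells in between; the change on silencing was 0.52 (adjusted p = 0.579). PXN-AS1 had no overlap between silenced and ALI control and changed by -1.26 (adjusted p = 0.615), while PXN changed by 0.66 (adjusted p = 0.659). PXN-AS1 reached the minimum only through ALI control (57 of 103 counts), so its change is a description only. MCM3AP-AS1 (0.97, adjusted p = 0.62) and LINC00265 (0.73, adjusted p = 0.683) were the next of smallest p above 0, and FBXO22-AS1 (-0.69, adjusted p = 0.645) and LINC00493 (-0.73, adjusted p = 0.658; -0.09 without ALI control library 2) the next below 0.

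A pair of members chosen after their values were seen fell under the low-count filter and so were not among the 82. LINC00340, now CASC15 (chromosome 6, 21666675 to 22194616, plus strand, hg19), whose nearest coding gene encodes the transcription factor SOX4, was at 0.187, 0.206 and 0.117 CPM in silenced, 0.938, 3.15 and 3.28 CPM in ALI control and 0.496, 0.304 and 0.426 CPM in monolayer libraries. The counts were 6 in silenced, 63 in ALI control and 14 in monolayer libraries, and every ALI control library exceeded every other library. It reached the minimum of 50 counts only through ALI control, the group where it is high, so these values are a description with no test. SOX4 changed by 0.30 on silencing (adjusted p = 0.724) and by -2.83 between ALI control and monolayer (adjusted p = 1.66e-05).

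LIMD1-AS1 (chromosome 3, 45719657 to 45730374, minus strand, hg19) lies across LIMD1, which encodes a LIM-domain scaffold of cell junctions. It had 0 CPM in all 3 silenced libraries, against 2.68, 2.4 and 0.423 CPM in the ALI control libraries, with 0.425, 0.809 and 0 CPM in monolayer libraries. It had 0 counts in silenced and 43 in ALI control libraries, out of 57, and it too reached the minimum only through ALI control, so no fold or test is given. LIMD1 changed by 0.42 on silencing (adjusted p = 0.579). All 23 untested members had between 50 and 88 counts over the 9 libraries.

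**Figure D5:**
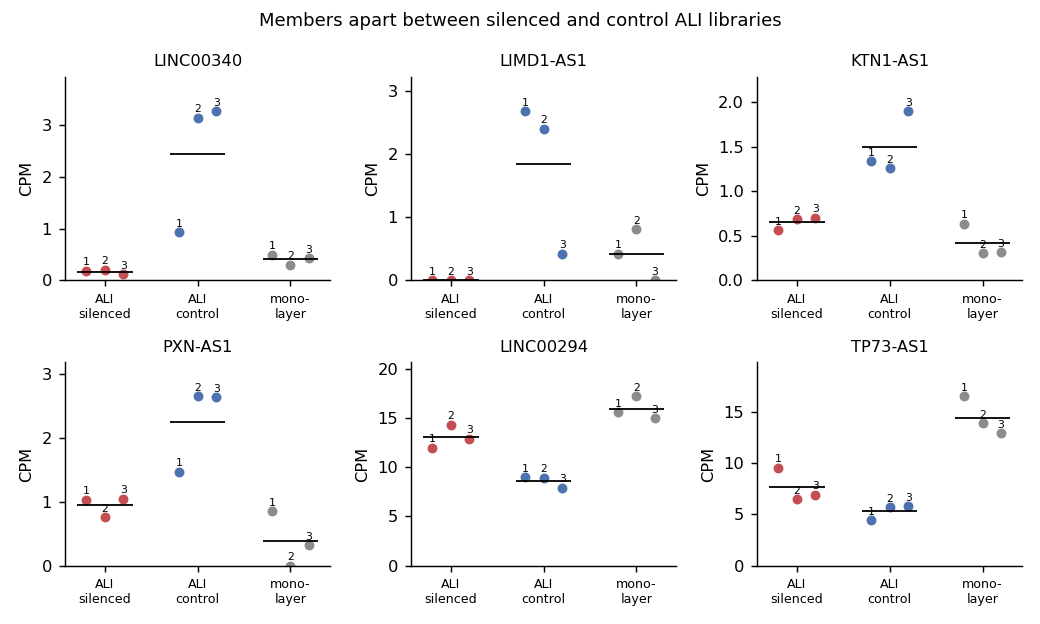
CPM (y axis, starting at 0) of the untested LINC00340 and LIMD1-AS1 and of 4 tested members, with 1 point per library numbered 1 to 3 and a line at the group mean; groups run silenced, ALI control, monolayer. LIMD1-AS1 is at 0 in all silenced libraries and LINC00340 at 0.117 to 0.206 CPM, while LINC00294 and TP73-AS1 lie between ALI control and monolayer in silenced cells.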

How the data were processed

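RNA was measured in 9 EPC2 libraries, with stranded polyA libraries per the labels' protocols. The deposited tables hold whole-number read counts and RPKM values made by the authors for 29800 transcript rows with hg19 coordinates; the submitters' processing notes name hg19, STAR 2.4.2a, Bowtie and MACS2, without roles. The counter, its annotation and its handling of strand were not given in the sources used here. Numbers in the file names differ from the labels for some ALI libraries, and the labels were followed.

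Counts were summed per symbol and chromosome. edgeR 4.0.16 in R 4.3.3 (TMM, filterByExpr, robust quasi-likelihood fit on all 9 libraries) tested 12806 genes, with Benjamini-Hochberg adjustment over all of them. CPM use the TMM-scaled library size. Standard errors are the size of the log2 fold change over the square root of the F statistic. Intervals are built on these with 6 degrees of freedom. The p-values come from the quasi-likelihood F-test itself, so an interval and its p-value need not match. Alternatives were DESeq2 1.42.0, limma 3.58.1 (voom, and log2(RPKM + 0.1 or 1)), other filters and omitted libraries; scripts were tested on simulated data. Members named were, in each contrast, the 8 largest called changes each way with at least 1 CPM in the higher group, filled up to 4 by smallest p, the 6 of highest RPKM, and studied RNAs; others past the test are listed by value. Members and lists were chosen with earlier results of these data known. Promoters and current names come from RefSeq (GRCh38.p14); 82 members matched a promoter. No hg19 coordinate was converted.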

Additional observations from a re-analysis of the deposited data

How the results depend on the processing

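On silencing, the count of higher members was 0 in every alternative run, and that of lower members was 1 with no low-count filter and 0 to 1 with 1 library left out. That call was of LINC00340, a member only through the group where it is high. On ALI control against monolayer, 16 higher and 18 lower became 10 and 11 with a membership minimum of 200 counts, and 7 to 18 and 11 to 19 with 1 library left out. Without both ALI libraries numbered 2 they were 11 and 21, and 29 of these 32 calls were among the 34. The shares of all tested genes called in the alternatives of this section are not given here. Moves in these counts are thus not read as particular to the members. The median change on silencing (-0.11) was -0.24 to -0.07 with 1 library left out, and 0.01 and 0.00 on log2(RPKM + 0.1) and log2(RPKM + 1). The median for ALI control against monolayer (0.08) was -0.01 with no low-count filter, -0.01 with only the groups compared, -0.09 on log2(RPKM + 0.1), -0.07 on log2(RPKM + 1), 0.02 with a minimum of 100 counts and -0.04 to 0.32 with 1 library left out, so its sign is not fixed. The cause was not tested.

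Samples with the same replicate number did not deviate together in every pair (correlations of 0.49, 0.58 and -0.01 between silenced and ALI control), and not every library correlated best with its own number. With the replicate number as a block, silencing gave 0 calls and ALI control against monolayer gave 12 higher and 17 lower, all 29 among the 34; THAP9-AS1 was then not called (adjusted p = 0.0567).

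No silencing change of a named tested member was called in any alternative, and some of these uncalled changes turned sign. Without both ALI libraries numbered 2 they became 0.14 for LINC00592, -1.13 for LINC00341, 0.11 for C17orf76-AS1, 0.23 for THAP9-AS1, 0.05 for OIP5-AS1 and -0.03 for LINC00152. LINC00341 was -0.05 with the replicate block, -0.54 in limma-voom and -0.10 on log2(RPKM + 0.1). On log2(RPKM + 0.1) and log2(RPKM + 1), THAP9-AS1 was 0.02 and 0.01, and OIP5-AS1 was 0.07 and 0.07. With 1 library left out, the silencing changes ran from -0.96 to 0.69 for LINC00592, -0.51 to 0.25 for LINC00313, -0.05 to 0.60 for MAGI2-AS3, -1.02 to 0.51 for LINC00341, -0.80 to 0.50 for C17orf76-AS1, -1.36 to 0.18 for ZNFX1-AS1, -0.02 to 0.27 for FGD5-AS1, -0.42 to 0.30 for THAP9-AS1, -0.48 to 0.42 for OIP5-AS1, -0.11 to 0.18 for LINC00152, -0.51 to 0.33 for ZEB1-AS1 and -0.96 to 0.44 for EPB41L4A-AS1. For ALI control against monolayer, OIP5-AS1 (0.20, not called) became -0.31 without both ALI libraries numbered 2, -0.10 and -0.09 on log2(RPKM + 0.1) and log2(RPKM + 1), and -0.31 to 0.44 with 1 library left out. MFI2-AS1 and LINC00313 are members only through the monolayer, where they are high. LINC00520, LINC00592, MFI2-AS1, MAGI2-AS3, LINC00313, LINC00319, KDM5B-AS1, STARD4-AS1, LINC00493, LINC00294 and TP73-AS1 kept their call in every alternative run. MCM3AP-AS1 lost it without either of ALI control libraries 1 and 2 and of monolayer libraries 1 and 2 (adjusted p between 0.0581 and 0.0975), and on log2(RPKM + 1).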

Other observations

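Noncoding RNAs outside the LINC and antisense symbols were set beside the members from a list of 35, of which 25 had a row and 19 were tested. Between ALI control and monolayer, 9 rose and 0 fell, with a median log2 change of 1.17 beside 0.03 over all tested genes. Of all tested genes, 20.3% rose and 20.2% fell. The list was chosen with earlier results of these data known, so these counts describe the listed RNAs only. H19, an imprinted RNA, was at 10.9, 6.05 and 13.6 CPM in silenced, 36.4, 13.6 and 61.3 CPM in ALI control and 9.42, 3.95 and 4.36 CPM in monolayer libraries, a rise of 2.63 in ALI control against monolayer (edgeR adjusted p = 0.0046). NEAT1 was counted only over chromosome 11, 65190269 to 65194003 (plus strand, hg19). It was at 339, 616 and 445 CPM in silenced, 515, 437 and 421 CPM in ALI control and 255, 56.3 and 56.8 CPM in monolayer libraries. This was a rise of 1.90 in ALI control against monolayer (edgeR adjusted p = 0.0202), with every ALI library above every monolayer library. DANCR, described elsewhere as a keeper of the undifferentiated state in epidermal cells, was at 21.0, 16.4 and 23.6 CPM in silenced, 23.0, 26.0 and 18.8 CPM in ALI control and 6.73, 9.61 and 10 CPM in monolayer libraries, a rise of 1.37 (adjusted p = 0.00184).

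Of the 8 snoRNA host genes named GAS5 or SNHG that were tested, SNHG15 (1.76, adjusted p = 0.00045), SNHG1 (1.81, adjusted p = 0.00127) and SNHG12 (1.38, adjusted p = 0.00665) rose in ALI control cells. SNHG8 (1.17, adjusted p = 0.112), SNHG6 (0.79, adjusted p = 0.166), SNHG7 (0.66, adjusted p = 0.056), GAS5 (0.40, SE 0.73, adjusted p = 0.687) and SNHG5 (-0.11, adjusted p = 0.868) did not pass the test. GAS5 was at 44.8, 150 and 57.7 CPM in silenced, 49.3, 306 and 53.3 CPM in ALI control and 168, 69.3 and 72.5 CPM in monolayer libraries, highest in the same ALI control library as C17orf76-AS1 and ZNFX1-AS1. On silencing, 0 of the 19 passed the test, with a median of -0.18; H19 changed by -1.88 (adjusted p = 0.182).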
